A study of Mus musculus with 6 samples.

Results

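Integrins are the receptors by which cells hold on to the matrix and to each other, and their cytoplasmic adaptors tie them to actin. The genes described here are 34 of the 31053 in the tables, chosen by name: 16 integrin alpha chains, 8 beta chains, the talins Tln1 and Tln2, the kindlins Fermt2 and Fermt3, and the adaptors Vcl, Pxn, Ilk, Lims1, Parva and Parvb. All 34 were found in the deposited tables and all passed the filter on low counts. They were measured in floating (suspension) and attached (adherent) cells of cultured fetal lung on days 4, 5 and 6, with 1 droplet library (10x 3' v3) for each fraction on each day, 6 in all. Both fractions came from wild type C57BL6 mouse fetuses at E17, whose dissociated lung cells were frozen, thawed and grown on thin Matrigel, a basement membrane extract that itself holds integrin ligands. All wells shared a medium for blood stem and progenitor cells with VEGF, FGF, thrombopoietin, Flt3, IL6 and stem cell factor. Only the adherent cells were taken off with accutase and then passed through a sort for live, VE-cadherin positive cells, so handling and attachment cannot be told apart. The number of fetuses is not given in the labels, nor whether each day had its own culture. A p-value here therefore reflects the spread among these libraries, which may be technical. Between the fractions, that spread also includes any change over days 4, 5 and 6.

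An integrin is a pair of an alpha and a beta chain, and the alpha chain largely sets the ligand. The beta1 chain pairs with many alpha chains that bind collagens, laminins and fibronectin. The beta2 chain is found on white blood cells, where it pairs with alphaL, alphaM or alphaX and binds ICAMs, complement and fibrinogen. Talins and kindlins bind the tail of the beta chain and switch the receptor on. The ILK, PINCH and parvin complex, paxillin and vinculin then join it to the cytoskeleton. Kindlin-3 (Fermt3) is the kindlin of blood cells, and kindlin-2 (Fermt2) that of most attached cells.

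Sense reads in genes summed to between 43805361 and 57784974 in suspension libraries and between 36451255 and 40882433 in adherent ones. Levels are CPM, the share of a library's scaled reads that fall in a gene, and 3 reads correspond to between 0.0594 and 0.0756 CPM. Values are sums over all cells of a library, so fewer cells of a type and less RNA per cell cannot be told apart. Marker genes of the cell types that these libraries could hold differed strongly between the fractions. All 10 endothelial markers were lower in suspension, with a summed level of 13.3 to 20.4 CPM in suspension and 660 to 1722 CPM in adherent libraries, and Cldn5, a tight junction gene, led them. That list includes the gene of VE-cadherin, for which only the adherent cells were sorted, so its direction is not independent of the sort. All 7 fibroblast markers were lower, at 17.4 to 64.6 CPM summed in suspension and 1471 to 2293 CPM in adherent libraries. Of 7 pericyte and smooth muscle markers 6 were lower (7.64 to 103 CPM summed in suspension and 495 to 2726 CPM in adherent libraries), and of 7 epithelial markers 4 (13.4 to 232 CPM and 309 to 1340 CPM). Of 7 macrophage markers 6 were higher in suspension, at 15983 to 17480 CPM summed, against 2302 to 5863 CPM in adherent libraries. All 8 neutrophil markers were higher, at 25429 to 77616 CPM summed in suspension and 225 to 978 CPM in adherent libraries. Of 7 megakaryocyte markers 5 could be tested and 2 were higher, and the summed levels were 1227 to 1927 CPM in suspension and 738 to 1361 CPM in adherent libraries. Nearly all of these sums came from Pf4, at 1220 to 1917 CPM in suspension and 736 to 1359 CPM in adherent libraries. Pf4 did not pass (adjusted p = 0.130 by edgeR), so the sums describe that gene rather than the list. Mast cell and basophil markers summed to 146 to 231 CPM in suspension and 31.6 to 170 CPM in adherent libraries, with 2 of 6 higher and Prss34 at 0 in adherent libraries. Lymphoid markers were near 0, at 4.59 to 15.04 CPM in suspension and 0.231 to 0.403 CPM in adherent libraries, with Cd3e and Ncr1 at 0 in both fractions, Rag1 at 0 in adherent libraries, and Nkg7 the only gene of the list with enough counts for a test. Dendritic markers were as low, at 1.48 to 2.02 CPM in suspension and 1.80 to 2.22 CPM in adherent libraries, with 2 of 6 genes tested, of which 1 was higher and 1 lower, and Siglech at 0 in adherent libraries. The lower gene was Zbtb46, which made up most of the adherent sum, at 1.68, 2.07 and 1.77 CPM on days 4, 5 and 6. The part of these cell types in the integrin values was not tested.

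**Figure D1:**
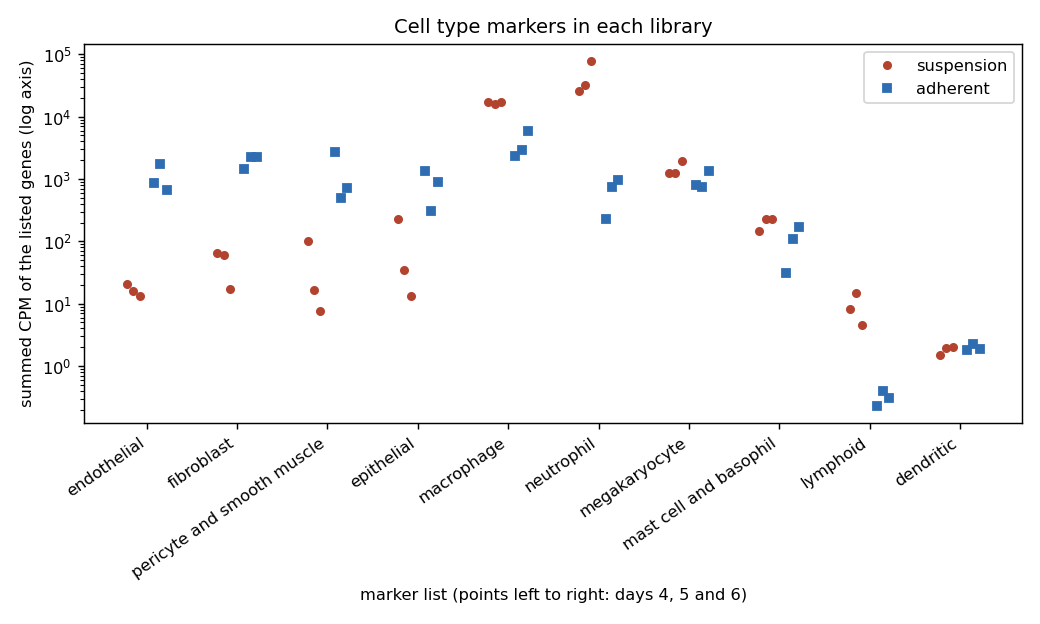
Summed CPM (log axis) of 10 lists of cell type markers, where each point is 1 library and the points of a fraction run from day 4 to day 6. Macrophage and neutrophil lists lie at 15983 CPM or more in suspension and at 5863 CPM or less in adherent libraries, while endothelial, fibroblast, pericyte and epithelial lists lie lower in suspension.

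The comparison of floating with attached cells asked which integrins and adaptors go with each state. The called integrin genes were split between the fractions largely by receptor family, with Itga6 as an exception. The white cell chains Itgal, Itgam, Itgax, Itgb2, Itga4 and Itgb7 and the blood cell kindlin Fermt3 were higher in suspension, by 5.61 to 25.8 times in mean CPM. The matrix receptor chains Itga1, Itga2, Itga3, Itga5, Itga7, Itga8, Itga9 and Itga11 were lower, with Itgb1, Itgb3, Itgb4, Fermt2, Parva and Vcl. Of the other matrix receptor alpha chains, Itga6 was higher and Itgav did not pass. The blood cell chains Itga2b and Itgae and the beta chains Itgb5, Itgb6 and Itgb8 did not pass either. In all, 8 of the 34 genes were higher and 17 lower in suspension, and 9 did not pass, by the quasi-likelihood test of edgeR (Benjamini-Hochberg adjusted p of 0.05 over all genes). That is 73.5% of the members, where 56.8% of all 14912 genes tested were called (27.1% higher and 29.7% lower), so a call by itself says little about a member. Their median log2 ratio was -0.97, against -0.00 over all genes tested. In a test against a 2-fold difference, 7 members were higher and 12 lower, or 55.9% of them, where 25.2% of all genes passed (8.77% higher and 16.4% lower). For 30 of the 34 genes all libraries of 1 fraction lay above those of the other, where this held for 67.8% of all genes tested (11 members above in suspension, where 33.4% of genes were, and 19 below, where 34.4% were).

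**Figure D2:**
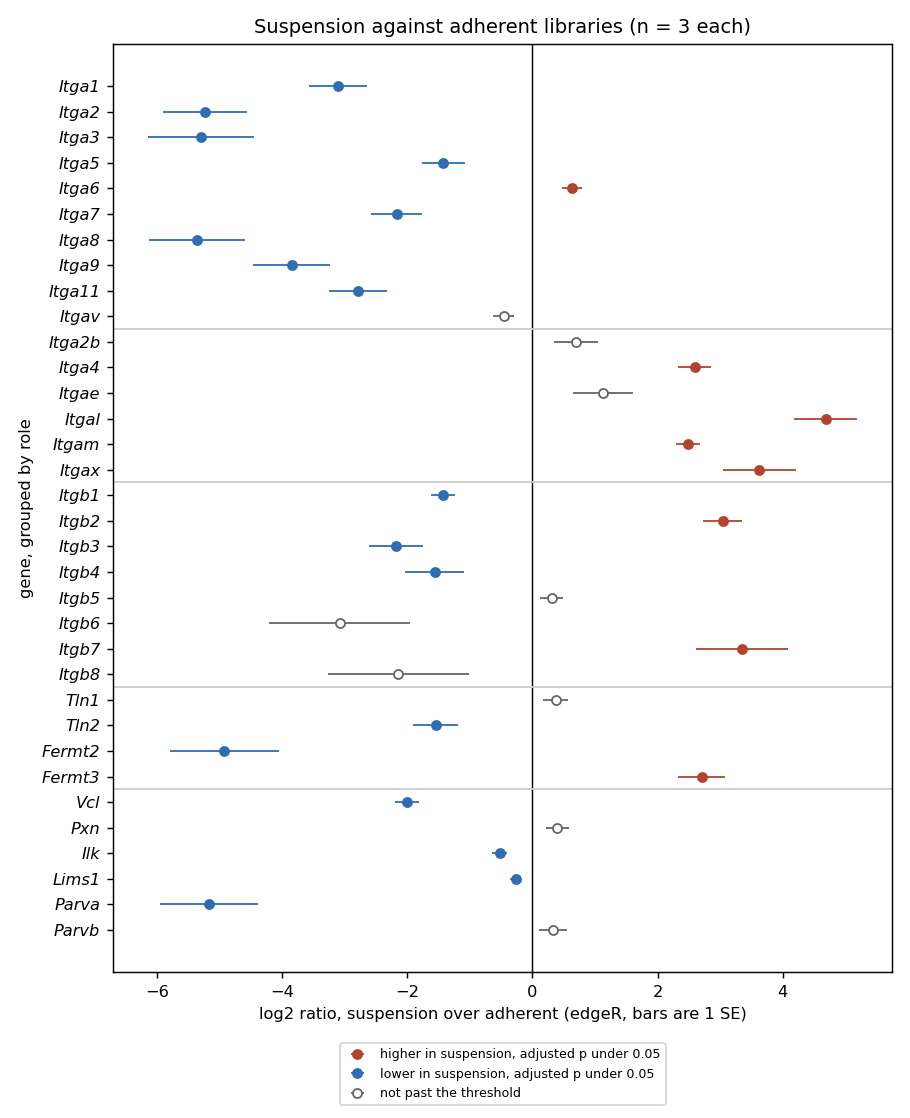
Log2 ratio of suspension over adherent libraries for the 34 genes, grouped by role, with bars of 1 SE and n = 3 libraries per fraction. Filled points passed an adjusted p of 0.05: 8 lie to the right of 0 (higher in suspension) and 17 to the left, and the 9 open points did not pass.

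**Figure D3:**
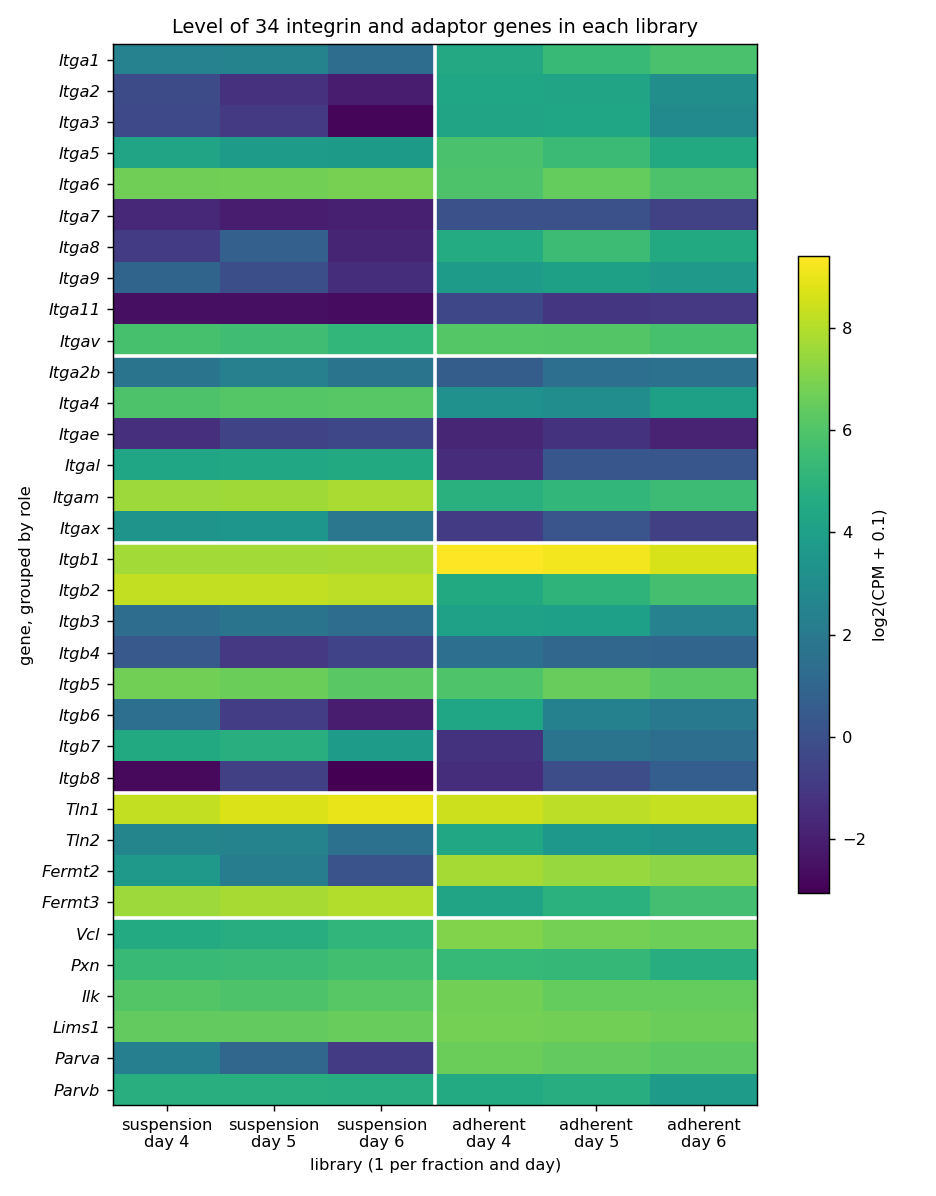
Level of each of the 34 genes in each of the 6 libraries as log2(CPM + 0.1), with suspension libraries on the left and white lines between the roles. Itgb2, Itgam and Fermt3 are bright on the left, Itgb1, Fermt2 and Parva on the right, and Tln1 is bright in all 6 libraries.

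The sequences just before the start sites are shown for 4 genes with opposite calls, Itgam and Fermt3 (higher in suspension) and Fermt2 and Itgb1 (lower). They are RefSeq sequences of build GRCm38.p6, 5' to 3' on the gene's strand, and stop before the gene's most upstream annotated start. Capitals mark GAGGAA, a core bound by PU.1 and other ETS factors, and GGGCGG, the core of the GC box, each on either strand. The motifs were chosen after the calls were known, and a match is a description of the letters only.
Itgam (chr7:128062390-128062639, plus strand): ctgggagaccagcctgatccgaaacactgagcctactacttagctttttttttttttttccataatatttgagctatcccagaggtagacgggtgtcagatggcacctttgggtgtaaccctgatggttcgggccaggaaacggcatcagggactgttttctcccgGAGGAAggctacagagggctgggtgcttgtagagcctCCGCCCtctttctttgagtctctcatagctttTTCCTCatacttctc
Fermt3 (chr19:7019470-7019719, minus strand): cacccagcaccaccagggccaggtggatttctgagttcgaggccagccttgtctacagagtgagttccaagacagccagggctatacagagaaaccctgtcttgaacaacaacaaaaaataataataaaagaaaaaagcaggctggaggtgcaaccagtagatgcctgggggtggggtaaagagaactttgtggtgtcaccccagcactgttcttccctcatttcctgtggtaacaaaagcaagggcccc
Fermt2 (chr14:45530119-45530315, minus strand): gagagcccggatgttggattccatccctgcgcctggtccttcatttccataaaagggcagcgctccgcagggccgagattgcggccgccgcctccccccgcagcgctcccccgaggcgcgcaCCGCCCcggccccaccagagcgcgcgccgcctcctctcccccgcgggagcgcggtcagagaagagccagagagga
Itgb1 (chr8:128685404-128685653, plus strand): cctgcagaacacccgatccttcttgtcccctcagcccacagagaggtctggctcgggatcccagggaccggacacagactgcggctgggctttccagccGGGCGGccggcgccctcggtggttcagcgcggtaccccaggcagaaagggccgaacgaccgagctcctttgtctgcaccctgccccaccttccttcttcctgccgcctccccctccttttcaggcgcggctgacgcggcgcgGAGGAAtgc
GAGGAA occurred in 23.3% and GGGCGG in 32.7% of 32851 windows of 250 bases before RefSeq start sites, and a window was held for 24 of the 34 genes. The Itgam window had 2 matches to GAGGAA and 1 to GGGCGG, and that of Itgb1 had 1 of each. The Fermt3 window had 0 matches to either, and the Fermt2 window, of 197 bases, had 1 match to GGGCGG and 0 to GAGGAA. The kindlin windows differed in base composition, with 72.1% G and C for Fermt2 and 50.0% for Fermt3, where the median of all windows was 52.4%. The window of Itgb1 had 68.0% and that of Itgam 49.6%.

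The chains Itgb2, Itgam, Itgal and Itgax of the beta2 family of white blood cells were all higher in suspension. Itgb2 (mm10 chromosome 10, 77530252 to 77565708), the shared beta chain, measured 305, 307 and 288 CPM in the suspension libraries of days 4, 5 and 6, against 23.0, 32.7 and 53.5 CPM in adherent libraries. Suspension libraries were close to each other, while the adherent level was higher on each later day. The log2 ratio was 3.04 ± 0.31 (SE; adjusted p = 0.000736 by edgeR). Itgam (CD11b, mm10 chromosome 7, 128062640 to 128118491), the alpha chain of the complement receptor of neutrophils and macrophages, was at 194, 197 and 229 CPM in suspension, against 28.7, 36.1 and 45.5 CPM in adherent libraries. Its log2 ratio was 2.49 ± 0.19 (adjusted p = 0.000433), and a predicted gene, Gm49368, overlaps it on the same strand. Itgal (CD11a), which forms LFA-1 with beta2, was at 20.0, 21.3 and 22.6 CPM in suspension, against 0.254, 1.11 and 1.12 CPM in adherent libraries. The log2 ratio of 4.69 ± 0.50 (adjusted p = 0.000823) was the highest of the 34. Itgax (CD11c), carried by dendritic cells and lung macrophages, was at 10.4, 11.2 and 3.56 CPM in suspension, against 0.438, 1.08 and 0.512 CPM in adherent libraries. It was higher by 3.63 ± 0.58 on the log2 scale (adjusted p = 0.00281), and the suspension library of day 6 was the lowest of its fraction. On days 4, 5 and 6 of suspension the dendritic markers summed to 1.48, 1.98 and 2.02 CPM and the macrophage markers to 17480, 15983 and 17017 CPM. The neutrophil markers summed to 25429, 32683 and 77616 CPM, and none of these lists had the order of Itgax. The lymphoid markers did, at 8.31, 15.04 and 4.59 CPM, but nearly all of that sum was Nkg7, at 8.09, 14.8 and 4.46 CPM. The match is therefore with a single gene over 3 days, and Cd3e and Ncr1 of that list were at 0. The part of these lists in the values of Itgax was not tested.

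The chains of the alpha4 receptors were also higher in suspension. Itga4, which pairs with beta1 or beta7 and holds blood cells to VCAM1 and fibronectin, was at 60.4, 70.2 and 71.9 CPM in suspension, against 9.39, 8.24 and 16.0 CPM in adherent libraries (log2 ratio 2.59 ± 0.27, adjusted p = 0.000749). Itgb7, its partner on gut-homing lymphocytes and on mast cell progenitors, was at 22.7, 26.5 and 14.0 CPM in suspension. In adherent libraries it was at 0.323 CPM on day 4 and at 3.22 and 2.63 CPM on days 5 and 6. The fractions did not overlap, and the log2 ratio was 3.35 ± 0.74 (adjusted p = 0.00906). Mast cell and basophil markers summed to 146, 226 and 231 CPM in suspension and 31.6, 107 and 170 CPM in adherent libraries on days 4, 5 and 6. Like Itgb7 they were lowest on day 4 in adherent libraries, but their order of days otherwise differed from that of Itgb7. Lymphoid markers summed to 8.31, 15.04 and 4.59 CPM in suspension and 0.231, 0.403 and 0.303 CPM in adherent libraries. That is the order of days of Itgb7 in both fractions, but in suspension nearly all of the lymphoid sum was Nkg7, at 8.09, 14.8 and 4.46 CPM. The part of both lists in the values of Itgb7 was not tested. Itgae (CD103), the other alpha chain of beta7, which binds E-cadherin, was near the limit of counting, with 72 reads in the suspension libraries together and 30 in the adherent ones. It did not pass (log2 ratio 1.13 ± 0.48, adjusted p = 0.0845), and 35.9% of the reads at its locus lay on the antisense strand, where Haspin overlaps it. Itga2b (CD41), the platelet alpha chain and an early mark of blood progenitors, was at 3.22, 5.05 and 3.21 CPM in suspension, against 1.45, 2.67 and 2.96 CPM in adherent libraries. The libraries did not overlap, but the log2 ratio of 0.70 ± 0.35 did not pass (adjusted p = 0.132).

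The alpha chains Itga1, Itga2, Itga3, Itga5, Itga7, Itga8, Itga9 and Itga11, known to pair only with beta1, were lower in suspension. Itga4 and Itga6, which pair with beta1 or another beta chain, were higher, and Itgav did not pass. Itgb1 (mm10 chromosome 8, 128685654 to 128733200) was at 206, 205 and 209 CPM in suspension, against 680, 586 and 409 CPM in adherent libraries. The suspension libraries were nearly equal and the adherent level was lower on each later day. The log2 ratio was -1.43 ± 0.19 (adjusted p = 0.00154), which also passed the test against a 2-fold difference (adjusted p = 0.0352). Among the collagen receptors, Itga1 was at 5.52, 5.60 and 2.49 CPM in suspension, against 21.7, 39.8 and 56.3 CPM in adherent libraries (log2 ratio -3.12 ± 0.46, adjusted p = 0.00217). Pelo and Gm49395 overlap Itga1 on the same strand, so its counts are less certain. Itga2, another collagen receptor, was at 0.799, 0.310 and 0.139 CPM in suspension, against 19.2, 18.8 and 8.53 CPM in adherent libraries. Its log2 ratio was -5.24 ± 0.67 and became -6.17 without the suspension library of day 4. Itga11, a collagen receptor of fibroblasts, had 9 reads in suspension and 61 in adherent libraries (log2 ratio -2.78 ± 0.46, adjusted p = 0.00323).

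The laminin receptors of the beta1 family went in the same direction except for Itga6. Itga3, a laminin receptor of epithelia and endothelium, was at 0.702, 0.429 and 0.0396 CPM in suspension, against 18.6, 19.5 and 7.22 CPM in adherent libraries, and the day 6 suspension value rests on 2 reads. Its log2 ratio of -5.30 ± 0.84 (adjusted p = 0.00273) became -6.10 without the suspension library of day 4. Itga7, known from muscle, was low in both fractions, with 23 reads in suspension and 99 in adherent libraries (log2 ratio -2.17 ± 0.41, adjusted p = 0.00490). Itga6, which pairs with beta1 or beta4, was at 104, 108 and 114 CPM in suspension, against 61.1, 87.8 and 61.0 CPM in adherent libraries. It was the only alpha chain of the matrix receptors that was higher in suspension, by 0.63 ± 0.16 on the log2 scale (adjusted p = 0.0164). That call was lost when suspension day 5 (adjusted p = 0.0591) or day 6 (adjusted p = 0.0527) was left out, and in the test against a 2-fold difference. Itgb4, its partner at the hemidesmosomes of epithelia, was at 1.26, 0.405 and 0.574 CPM in suspension, against 2.72, 1.96 and 1.93 CPM in adherent libraries. The log2 ratio of Itgb4 was -1.56 ± 0.47 (adjusted p = 0.0279). The call was lost when suspension day 5 or 6 (adjusted p = 0.0788 and 0.0813) or adherent day 4 or 5 (adjusted p = 0.0686 and 0.0628) was left out, and the ratio was -2.21 when suspension day 4 was.

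Receptors for fibronectin, nephronectin and other ligands were lower in suspension for Itga5, Itga8 and Itga9. Itga5, the fibronectin receptor of endothelium and many other cells, was at 18.4, 14.1 and 13.1 CPM in suspension, against 56.2, 43.9 and 22.5 CPM in adherent libraries. Its log2 ratio was -1.42 ± 0.34 (adjusted p = 0.0121), and it did not pass when suspension day 5 was left out (adjusted p = 0.0516). Itga8, a nephronectin receptor of mesenchymal cells, was at 0.436, 1.62 and 0.198 CPM in suspension, against 24.3, 44.8 and 22.7 CPM in adherent libraries. The log2 ratio of Itga8, -5.36 ± 0.76 (adjusted p = 0.00187), was the lowest of the 34 and became -6.64 without the suspension library of day 5. Itga9, a tenascin and VCAM1 receptor needed for lymphatic valves, was at 1.86, 0.858 and 0.277 CPM in suspension, against 14.1, 16.5 and 12.4 CPM in adherent libraries (log2 ratio -3.85 ± 0.62, adjusted p = 0.00288, and -4.71 without the suspension library of day 4). In suspension the summed fibroblast, pericyte, endothelial and epithelial markers were each highest on day 4 and lowest on day 6, as were Itga9 and Itga2 but not Itga8, and their part in these values was not tested.

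The alphaV chain and its beta partners did not share a direction. Itgav, which pairs with beta1, beta3, beta5, beta6 and beta8, was at 54.4, 48.0 and 37.0 CPM in suspension, against 70.1, 67.1 and 54.6 CPM in adherent libraries. The fractions did not overlap, but the log2 ratio of -0.46 ± 0.17 did not pass (adjusted p = 0.0603). It passed with the collection day as a block (paired by day, log2 ratio -0.47, adjusted p = 0.0126), and when suspension day 4 (adjusted p = 0.0460) or adherent day 6 (adjusted p = 0.0381) was left out. Itgb3, the vitronectin receptor chain of endothelium, osteoclasts and platelets, was at 2.52, 3.26 and 2.49 CPM in suspension, against 16.7, 15.5 and 5.47 CPM in adherent libraries (log2 ratio -2.18 ± 0.43, adjusted p = 0.00611). Itgb5, a vitronectin receptor chain of macrophages and stromal cells, overlapped between the fractions, at 106, 97.8 and 74.9 CPM in suspension and 62.4, 89.7 and 73.6 CPM in adherent libraries (log2 ratio 0.31 ± 0.18, adjusted p = 0.200).

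The TGF-beta activating chains of epithelium and other cells differed widely between days. Itgb6 was at 2.74, 0.477 and 0.139 CPM in suspension, against 18.9, 5.26 and 3.91 CPM in adherent libraries. The log2 ratio was -3.08 ± 1.13 and did not pass (adjusted p = 0.0550), but it was -3.51 with the day as a block (adjusted p = 0.00383). Without the suspension library of day 4 it was -5.01 (adjusted p = 0.0153), and with adherent day 4 left out -2.04 (adjusted p = 0.158). Epithelial markers had the same order of days in suspension, at 232, 35.1 and 13.4 CPM summed, but not in adherent libraries, at 1340, 309 and 886 CPM, and their part was not tested. Itgb8 had 2, 22 and 1 reads in suspension, against 12, 33 and 64 reads in adherent libraries. Its log2 ratio of -2.14 ± 1.13 did not pass (adjusted p = 0.148), but it was -4.62 (adjusted p = 0.0212) without the suspension library of day 5.

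The kindlins Fermt3 and Fermt2 had opposite calls in the fractions, while talin-1 did not pass in either direction. Fermt3 (mm10 chromosome 19, 6998958 to 7019469) was at 190, 219 and 247 CPM in suspension, against 18.4, 30.3 and 51.9 CPM in adherent libraries. The log2 ratio was 2.70 ± 0.38 (adjusted p = 0.00181). Fermt2 (mm10 chromosome 14, 45458795 to 45530118) was at 12.4, 4.60 and 0.990 CPM in suspension, against 215, 179 and 152 CPM in adherent libraries. Its log2 ratio was -4.93 ± 0.87 (adjusted p = 0.00395), and -6.07 without the suspension library of day 4. Tln1, the talin of most cells, was at 304, 435 and 506 CPM in suspension and 358, 291 and 313 CPM in adherent libraries. The fractions overlapped and the log2 ratio of 0.37 ± 0.20 did not pass (adjusted p = 0.156), although without the suspension library of day 4 it was 0.51 (adjusted p = 0.0410). Tln2, the talin best known from muscle and brain, was at 5.93, 5.67 and 3.05 CPM in suspension, against 20.3, 12.04 and 10.4 CPM in adherent libraries (log2 ratio -1.55 ± 0.36, adjusted p = 0.0109), and did not pass the test against a 2-fold difference (adjusted p = 0.103).

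Among the adaptors, Parva and Vcl were lower in suspension by large ratios, and Ilk and Lims1 by small ones. Parva (alpha-parvin, mm10 chromosome 7, 112427505 to 112591692), an actin-binding partner of ILK, was at 4.89, 1.98 and 0.455 CPM in suspension, against 98.6, 86.0 and 76.3 CPM in adherent libraries. Its log2 ratio was -5.17 ± 0.78 (adjusted p = 0.00233), and -6.22 without the suspension library of day 4. Parvb (beta-parvin) was at 26.6, 26.5 and 26.3 CPM in suspension, against 23.6, 25.9 and 14.0 CPM in adherent libraries, and did not pass (log2 ratio 0.32 ± 0.23, adjusted p = 0.261). Vcl (vinculin), which links talin to actin under tension, was at 23.5, 25.9 and 35.6 CPM in suspension, against 131, 112 and 100 CPM in adherent libraries (log2 ratio -2.01 ± 0.19, adjusted p = 0.000636). Pxn (paxillin), a scaffold of focal adhesions, was at 41.6, 43.4 and 50.1 CPM in suspension, against 38.9, 38.2 and 25.6 CPM in adherent libraries, and did not pass (log2 ratio 0.40 ± 0.18, adjusted p = 0.106).

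Ilk (integrin-linked kinase, a pseudokinase that binds beta tails and parvins) was lower by a small ratio, at 67.0, 60.8 and 71.3 CPM in suspension, against 109, 87.7 and 89.3 CPM in adherent libraries. The log2 ratio was -0.52 ± 0.12 (adjusted p = 0.0115), and it did not pass when suspension day 5 was left out (adjusted p = 0.0562). The count of Ilk depends on strand: it had 20963 sense reads in the 6 libraries but 13 when reads on either strand were counted, and Taf10 and Rrp8 overlap it on the opposite strand. Lims1 (PINCH1), which docks on ILK, was at 85.0, 85.2 and 92.3 CPM in suspension, against 111, 107 and 98.6 CPM in adherent libraries (log2 ratio -0.27 ± 0.09, adjusted p = 0.0433). This call was lost with the day as a block (log2 ratio -0.27, adjusted p = 0.0809). It was also lost when suspension day 4, 5 or 6 (adjusted p = 0.1002, 0.124 and 0.0756) or adherent day 4 or 5 (adjusted p = 0.0769 and 0.124) was left out. Neither Ilk nor Lims1 passed the test against a 2-fold difference.

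The ratio of related genes within a library does not depend on scaling between libraries, and gene length cancels when libraries are compared. The balance is given as the log2 ratio of counts, as mean ± SD over 3 libraries, and as a description without a test. Fermt3 over Fermt2 was 15.3, 47.5 and 250 in suspension on days 4, 5 and 6, against 0.0855, 0.169 and 0.342 in adherent libraries, or 5.82 ± 2.03 and -2.55 ± 1.0 on the log2 scale. Parvb over Parva was 5.43, 13.4 and 57.8 in suspension, against 0.239, 0.301 and 0.183 in adherent libraries, or 4.01 ± 1.72 and -2.08 ± 0.36 on the log2 scale. For both pairs the ratio in suspension was higher on each later day, where Fermt2 and Parva were lower on each later day. Itgb2 over Itgb1 was 1.48, 1.499 and 1.38 in suspension, against 0.0339, 0.0558 and 0.131 in adherent libraries, or 0.54 ± 0.07 and -3.99 ± 0.99 on the log2 scale. Here suspension was steady and the adherent ratio was higher on each later day. Tln1 over Tln2 was 51.3, 76.7 and 166 in suspension, against 17.6, 24.2 and 30.0 in adherent libraries, the smallest separation of the 4 pairs (6.44 ± 0.86 and 4.55 ± 0.39 on the log2 scale).

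**Figure D4:**
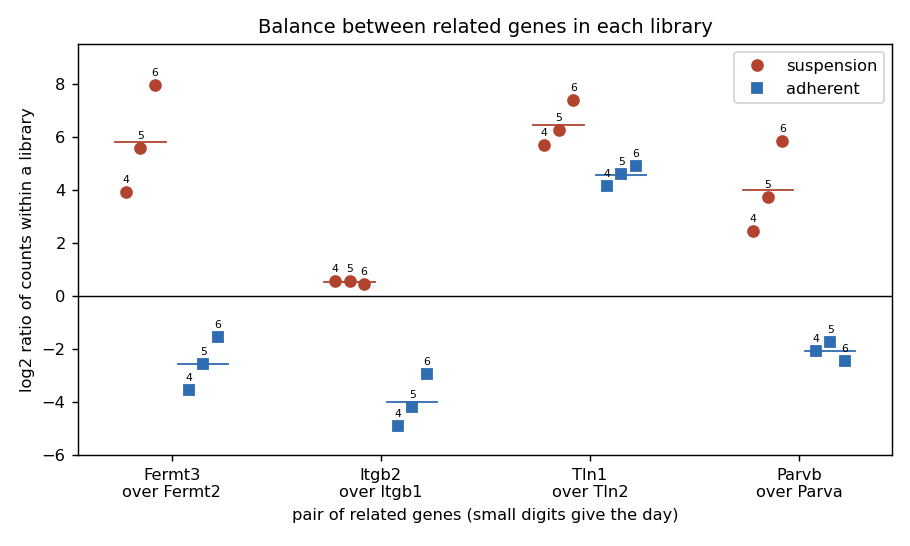
Log2 ratio of read counts between related genes in each library, with suspension points left of adherent points, small digits for the day and lines for the mean of 3 libraries. The pairs of kindlins, of Itgb2 and Itgb1 and of parvins lie on opposite sides of 0 in the fractions, and Tln1 over Tln2 lies above 0 in all 6 libraries.

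Matched by day, the ratio between the fractions differed from day to day, and the test of this, a difference in slope, passed by edgeR for Fermt2 and Parva and not for the other members. The values of a day compare 1 library with 1, without a test. Itgb2 was 13.2, 9.40 and 5.38 times as high in suspension as in adherent cells on days 4, 5 and 6, and Fermt3 10.3, 7.21 and 4.77 times. Itgam followed at 6.75, 5.45 and 5.02 times, and Itgb7 at 70.2, 8.23 and 5.30 times. None of these 4 passed the slope test (adjusted p = 0.0599 for Itgb2, 0.0634 for Fermt3, 0.255 for Itgam and 0.313 for Itgb7 by edgeR). In the adherent libraries, although sorted for VE-cadherin, the macrophage markers summed to 2302, 2971 and 5863 CPM and the neutrophil markers to 225, 748 and 978 CPM on days 4, 5 and 6. Their part in these ratios was not tested. Itgb1 was 3.30, 2.86 and 1.95 times as high in adherent as in suspension cells on days 4, 5 and 6, Itgb3 6.61, 4.74 and 2.19 times and Vcl 5.56, 4.32 and 2.81 times, and the slope test did not pass for these 3 either (adjusted p = 0.140, 0.295 and 0.0880). Fermt2 was 17.4, 39.0 and 153 times and Parva 20.2, 43.5 and 168 times as high in adherent cells. Itga1 was 3.92, 7.12 and 22.6 times as high in adherent cells, with a slope test that did not pass (adjusted p = 0.0904). On days 4, 5 and 6 the fibroblast markers in suspension summed to 64.6, 59.7 and 17.4 CPM, the pericyte and smooth muscle markers to 103, 16.3 and 7.64 CPM, the endothelial markers to 20.4, 16.2 and 13.3 CPM and the epithelial markers to 232, 35.1 and 13.4 CPM. Their part in these ratios was not tested.

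**Figure D5:**
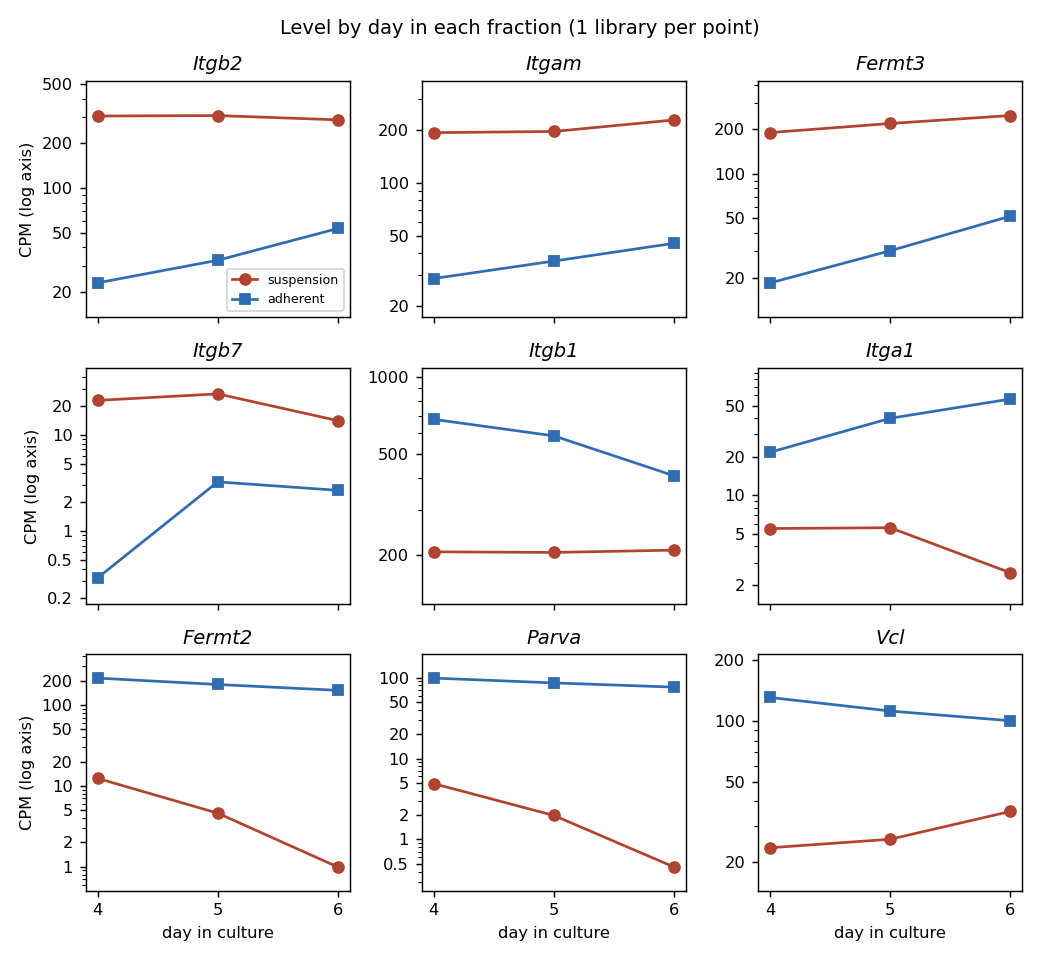
CPM (log axis) of 9 genes on days 4, 5 and 6 in suspension and adherent cells, with 1 library per point. Itgb2, Itgam and Fermt3 read lowest on day 4 and highest on day 6 in the adherent libraries, and Fermt2 and Parva drop in suspension to 0.990 and 0.455 CPM on day 6.

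The change over days was tested as a log2 slope per day over all 6 libraries. A slope common to both fractions was called by edgeR for 0 of the 34 genes, where 0.0134% of all genes were called. At an unadjusted p under 0.05 there were 9 members, where 20.4% of all genes had such a p, and DESeq2 called 9 members (1 with a positive and 8 with a negative slope), where it called 9.51% of all genes (4.63% positive and 4.88% negative). The slope in suspension minus that in adherent cells passed for 2 of the 34, Fermt2 at -1.51 ± 0.16 and Parva at -1.44 ± 0.16 per day (adjusted p = 0.0485 for both by edgeR), where 0.516% of all genes were called. DESeq2 called 9 members (3 positive and 6 negative), where it called 7.11% of all genes (1.39% positive and 5.72% negative). At an unadjusted p under 0.05 by edgeR there were 12 members, where 19.6% of all genes had such a p. The adjusted p-values of Fermt2 and Parva by edgeR lie next to the threshold and rest on 2 residual degrees of freedom. They were 0.0518 for both genes with counts thinned to the smallest library and 0.0585 without globin and mitochondrial genes, and with reads on either strand Fermt2 did not pass either (0.0552). Next were Itgb2 at -0.65 ± 0.09 (adjusted p = 0.0599) and Fermt3 at -0.56 ± 0.08 (adjusted p = 0.0634), which did not pass.

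Other genes of the adhesion machinery are given by list, each list in full, and the lists were drawn up with earlier results of these data known. Of 11 regulators that act on integrins from inside the cell or at the membrane, 10 were higher in suspension and 1 lower, with a median log2 ratio of 0.999. Over all genes tested 27.1% were higher and 29.7% lower. Cd47, a membrane partner of beta3 integrins, was at 655 ± 66.8 CPM in suspension and 366 ± 28.9 CPM in adherent libraries (SD, n = 3). Dab2, an endocytic adaptor of beta1 integrins, was at 454 ± 133 and 206 ± 79.2 CPM, but its adjusted p of 0.0224 by edgeR became 0.0556 with suspension day 6 left out, and 0.0544 and 0.0810 with adherent day 4 or 5 left out. The tetraspanin Cd151, a partner of alpha3 and alpha6 integrins, was the gene that was lower, at 23.5 ± 1.59 CPM in suspension and 69.6 ± 13.2 CPM in adherent libraries. In the test against a 2-fold difference 2 of the 10 remained higher, where 8.77% of all genes tested were higher. Of 15 actin linkers 0 were higher and 8 lower (median -0.75), where 27.1% and 29.7% of all genes tested were. Among those lower were the LIM protein gene Csrp1 at -1.50 ± 0.15 and Palld at -0.75 ± 0.15. In the test against a 2-fold difference 0 linkers were higher and 6 lower, where 8.77% and 16.4% of all genes were. At an unadjusted p under 0.05 by edgeR, 0 linkers were higher and 9 lower, and DESeq2 called 0 higher and 8 lower.

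Focal adhesion kinases and scaffolds were called in both directions. Of 13, 4 were higher and 6 lower in suspension (median log2 ratio 0.11), and 2 and 3 in the test against a 2-fold difference. Over all genes tested these shares were 27.1% and 29.7%, and 8.77% and 16.4% in the test against a 2-fold difference. Ptk2b (Pyk2), the kinase of this family found in blood cells, was at 52.5 ± 3.21 CPM in suspension and 9.66 ± 2.30 CPM in adherent libraries (SD, n = 3), and Git2, a paxillin-binding scaffold, was at 62.0 ± 6.36 and 35.2 ± 4.82 CPM. Dock1, an activator of Rac, and the kinase gene Fyn were lower by -1.03 ± 0.14 and -1.10 ± 0.20 on the log2 scale. Ptk2 (focal adhesion kinase itself), named after its values were seen, was at 4.30 ± 0.69 CPM in suspension and 28.8 ± 5.28 CPM in adherent libraries. Of 4 other kindlins, parvins and LIM partners, 1 was higher and 1 lower (median 0.13). These were Parvg, the parvin of blood cells, at 43.7 ± 2.80 CPM in suspension and 4.30 ± 2.39 CPM in adherent libraries, and Lims2 (PINCH2) at 0.784 ± 0.054 and 2.69 ± 0.756 CPM. The kindlin gene Fermt1 and Rsu1, named after their values were seen, did not pass (adjusted p = 0.799 and 0.0610 by edgeR). The number lower was 2 by DESeq2, with its size factors and without globin and mitochondrial genes. Of 4 other integrin chain genes 3 could be tested and Itgad was at 0 in all 6 libraries. Itgb2l, a beta2-like chain of neutrophils, was higher, at 22.8 ± 16.3 CPM in suspension and 0.223 ± 0.221 CPM in adherent libraries. Itgbl1, which encodes a secreted beta-like protein, was lower, with 0.0081 ± 0.0140 and 0.296 ± 0.0749 CPM from 1 and 37 reads, and was filtered out as too low with thinned counts.

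Integrin ligands were mostly lower in suspension. Of 23 listed, 20 could be tested, and 2 were higher and 14 lower, with a median log2 ratio of -2.98 (13 to 17 were lower over all alternatives). Over all genes tested 27.1% were higher and 29.7% lower. Fn1 (fibronectin), the ligand of alpha5beta1, had a log2 ratio of -2.93 ± 0.37, and Col1a1 (type I collagen), a ligand of alpha1, alpha2 and alpha11, one of -5.50 ± 0.66. The 2 that were higher were Spp1 (osteopontin), bound by alphaV and alpha4 integrins, at 1.38 ± 0.25, and Vwf, bound by the platelet integrin, at 19.5 ± 6.81 CPM in suspension and 2.49 ± 0.66 CPM in adherent libraries (SD, n = 3). Spp1 did not pass the test against a 2-fold difference (adjusted p = 0.0985). Vcam1, the endothelial ligand of alpha4 integrins, and Icam1 and Icam2, ligands of beta2 integrins, were named after their values were seen. Vcam1 was at 6.45 ± 1.10 CPM in suspension and 56.5 ± 13.0 CPM in adherent libraries, Icam1 at 22.4 ± 3.81 and 39.7 ± 6.56 CPM and Icam2 at 9.42 ± 0.91 and 76.8 ± 38.2 CPM. All 3 were lower in suspension by edgeR.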

How the data were processed

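Each deposited table holds, for 1 whole library, the authors' raw counts of reads per gene on either strand, the sense strand and the antisense strand. The tools named in the submitters' processing notes are STARsolo, Cell Ranger and bcl2fastq, with mm10 as build; their versions were not given in the sources used here. With no cell axis in the tables, doublets could be neither called nor removed. Reads, not molecules, were counted, so floors cover counting error only. Sense counts were analysed, and reads in no gene (16.7% to 16.8% of a suspension and 23.4% to 24.2% of an adherent library) were left out.

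Gene symbols were looked up in GENCODE M21 (GRCm38, the assembly of mm10), which held 31011 of 31053 identifiers. edgeR 4.0.16 in R 4.3.3 filtered low counts (filterByExpr) and scaled libraries (TMM), leaving 14912 of 22019 genes with any count. Quasi-likelihood tests compared fractions (4 residual degrees of freedom), a common slope per day (3) and the slope difference (2), adjusted by Benjamini-Hochberg over all genes. The SE is the absolute log2 value over the square root of F. The fits were tested on simulated data.

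The days stand in for replicates. The labels name a shared collection day, which pairs the fractions. Across genes, deviations from the mean of the fraction had correlations of 0.318, 0.0952 and 0.253 within days 4, 5 and 6, and of -0.285 to 0.0217 between days. Alternatives were a block for day, reads on either strand, DESeq2 1.42.0 and its size factors, other filters, thinned counts, globin and mitochondrial genes left out, a test against a 2-fold difference, and each library left out. The genes, lists and motifs were chosen with earlier results of these data known. The text names all 34 members, the called genes of highest mean CPM in each direction of a pathway list (up to 2), and the gene of highest mean CPM in each marker list: Cldn5, Col1a2, Acta2, Sftpc, Lyz2, S100a9, Pf4, Cpa3, Nkg7 and Zbtb46. Other names are said to be chosen after their values were seen, apart from marker genes at 0 and Itgad. Some marker genes are not reported here.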

Additional observations from a re-analysis of the deposited data

Results flagged for a closer look

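The slope per day differed between the fractions by a test of the difference for 2 of the 34 genes. Fermt2 had a slope in suspension minus adherent of -1.51 log2 per day, with 12.4, 4.60 and 0.990 CPM in suspension and 215, 179 and 152 CPM in adherent libraries on days 4, 5 and 6. Parva had a slope difference of -1.44 log2 per day, with 4.89, 1.98 and 0.455 CPM in suspension and 98.6, 86.0 and 76.3 CPM in adherent libraries. Both genes had an adjusted p of 0.0485 by edgeR. Both calls were lost with thinned counts (0.0518) and without globin and mitochondrial genes (0.0585), and that of Fermt2 with reads on either strand (0.0552).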

How the results depend on the processing

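Of the 25 genes called between the fractions, 19 kept their direction and call in every alternative that tested them, and Itga5, Itga6, Itgb4, Tln2, Ilk and Lims1 lost the call in at least 1. Itgav, Itgb6, Itgb8 and Tln1 passed in at least 1. The paired fit with the replicate block (day) gave 8 members higher and 18 lower, and changed no member's call but those of Itgav, Itgb6 and Lims1. Leaving out each library gave 7 to 9 higher and 14 to 19 lower. Ilk was not tested with reads on either strand. Over all genes, 2365 were higher and 2741 lower under the filter of 10 CPM in 3 libraries, which leaves fewer genes and moved the median log2 ratio by -0.14, and 1308 and 2451 in the test against a 2-fold difference. The common slope was positive for 2 and negative for 0 of all genes. It was called for 684 and 720 by DESeq2 (1 and 8 members), for 27 and 39 without a filter, for 0 positive without globin and mitochondrial genes, and for 0 to 11 and 0 to 4 when each library was left out. The slope difference was positive for 8 and negative for 69 genes. It was called for 187 and 771 by DESeq2 (3 and 6 members), for 159 and 847 without a filter (2 and 6 members), and for 4 positive genes with reads on either strand (1 negative member). With at least 10 CPM in 3 libraries 15 were positive. With thinned counts there were 1 and 12, and without globin and mitochondrial genes 0 and 0, each with 0 members negative. The cause of these changes was not tested. Counting error is widest for the members with the fewest reads, such as Itga11 with 9, Itga7 with 23 and Itgb8 with 25 in suspension and Itgae with 30 in adherent libraries, although thinned counts changed no call between the fractions for these 4.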
